A study of Mus musculus with 52 samples.

Results

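Messenger RNA of 8 genes that respond to glucocorticoid hormones or carry the name salt-inducible was followed through 25 brain libraries and 27 cultured astrocyte libraries of C57BL/6 mice. The genes are Nr3c1, Fkbp5, Tsc22d3, Per1, Zbtb16, Sgk1, Rasd1 and Sik1, and they were taken by name from a total of 56783 gene identifiers in 4 tables. They were selected on measured values of 3 comparisons, in which Rasd1 was lower in KA brain of a first cohort and in CNO brain, and Sgk1 and Sik1 were lower in KA brain of a second cohort. The remaining 5 are the receptor and widely used response genes of the same hormone. In those 3 comparisons the values below are therefore a description, and no p-value is given for a member. All 8 were found in every table. All 8 passed the filter on low values in brain, and 6 passed it in astrocytes.

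The first cohort held 3 libraries of brain from a KA-induced TLE model and 3 of untreated brain. KA is the usual short name of kainic acid, an excitotoxin that induces seizures, and TLE of temporal lobe epilepsy. A second set held 3 libraries of brain treated with CNO, a designer-receptor ligand, in an epileptic model and 3 untreated libraries. The labels do not name the receptor or the cells that carry it. The second KA cohort held 3 libraries with Apoe knockout and KA, 3 labelled A2aR (adenosine A2a receptor) knockdown with KA, 4 with KA and 3 untreated, at 68760648 to 76643829 counts per library. Apoe encodes apolipoprotein E, the main lipid carrier of the brain. Cultures of astrocytes, star-shaped glial cells that support neurons, fell into 9 groups of 3 libraries. Apoe knockout astrocytes were given palmitic acid, oleic acid or neuronal conditional medium, or were untreated. Wild-type astrocytes were given palmitic acid, oleic acid, Apoe knockout neuronal conditional medium or neuronal conditional medium, or were untreated. Titles of the medium groups carry the letters KA, and those of knockout palmitic acid library 3 and knockout untreated library 3 the word mix, with no explanation. The sources used here give no brain region, age, sex, dose or time, and do not say how the knockdown was made. They also do not say that replicates are separate animals or cultures. The p-values therefore rest on a library-to-library spread that may be technical.

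Glucocorticoids, corticosterone in mice, bind the glucocorticoid receptor encoded by Nr3c1, which then enters the nucleus and binds short palindromic DNA elements (glucocorticoid response elements, GREs) near its target genes. The adrenal cortex releases the hormone into the blood with stress and with the daily rhythm, it reaches the brain from there, and astrocytes respond to it with many of the classic targets. Fkbp5 encodes a chaperone partner that lowers the receptor's affinity for hormone, and so closes a feedback loop. Tsc22d3 encodes the leucine zipper protein GILZ, Per1 a clock protein, Zbtb16 a zinc finger transcription factor, Sgk1 a kinase that regulates ion transport, and Rasd1 a dexamethasone-inducible small G protein. Sik1 encodes a kinase that restrains CREB-driven transcription by holding its CRTC coactivators in the cytoplasm, and is itself induced through CREB. Per1 and Sgk1 are also induced by neuronal activity and growth factor signals.

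On mm10 in GENCODE M21, Sgk1 lies at chr10:21882184-21999903, Per1 at chr11:69095217-69109960, Rasd1 at chr11:59963181-59964944, Sik1 at chr17:31844250-31855804, Fkbp5 at chr17:28399094-28517527, Tsc22d3 at chrX:140539528-140600659 and Zbtb16 at chr9:48654297-48836222. Promoter windows from RefSeq (GRCm38.p6, 250 bases before to 50 after a transcript start) were matched by symbol for 4 of the 8 genes, with 12 windows in all, 6 of them of Sgk1. Rasd1, Sik1, Zbtb16 and Nr3c1 had no matched window. Each window was searched on both strands for the GRE half-site AGAACA, the full palindrome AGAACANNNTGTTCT, the CRE (CREB site) TGACGTCA, its half-site TGACG, the E-box CACGTG and the TATA box TATAAA. The palindrome holds the half-site on each strand, and the CRE holds its own half-site. Of 32851 windows in the table, 19.0% held the GRE half-site, 0.00913% (3 windows) the palindrome, 1.79% the CRE, 20.8% its half-site, 7.15% the E-box and 13.6% the TATA box.

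3 windows are shown because they hold the hormone or CREB letters of genes that the results below turn on, and capitals mark the GRE letters in Sgk1 and Tsc22d3 and the CRE half-site in Per1.
Sgk1 window 5, chr10:21993640-21993939, plus strand: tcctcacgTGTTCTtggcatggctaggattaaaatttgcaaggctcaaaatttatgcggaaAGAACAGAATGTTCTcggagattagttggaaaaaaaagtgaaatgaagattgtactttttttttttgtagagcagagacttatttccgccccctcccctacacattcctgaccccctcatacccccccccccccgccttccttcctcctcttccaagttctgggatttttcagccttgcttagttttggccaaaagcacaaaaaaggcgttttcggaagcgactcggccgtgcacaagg
Per1 window 2, chr11:69099902-69100201, plus strand: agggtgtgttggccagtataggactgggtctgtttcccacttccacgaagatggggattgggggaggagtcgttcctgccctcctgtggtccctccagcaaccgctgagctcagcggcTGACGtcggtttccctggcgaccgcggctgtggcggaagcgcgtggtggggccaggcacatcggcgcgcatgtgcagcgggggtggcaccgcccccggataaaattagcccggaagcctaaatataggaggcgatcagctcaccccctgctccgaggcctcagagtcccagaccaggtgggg
Tsc22d3 window 2, chrX:140600473-140600772, minus strand: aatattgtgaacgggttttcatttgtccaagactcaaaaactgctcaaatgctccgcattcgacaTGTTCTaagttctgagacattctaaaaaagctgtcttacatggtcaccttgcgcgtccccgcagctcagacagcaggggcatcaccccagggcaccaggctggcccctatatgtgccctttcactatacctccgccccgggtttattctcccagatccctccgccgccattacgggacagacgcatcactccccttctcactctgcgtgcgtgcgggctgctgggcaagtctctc
The Sgk1 window is one of the 3 with the palindrome, whose first base stands 189 bases before the annotated start. A further half-site on the minus strand begins 242 bases before it and shares 2 bases with an E-box. The Per1 half-site begins 132 bases before its start, and the other Per1 window has a CRE half-site and an E-box. The Tsc22d3 half-site, on the minus strand of its window, begins 185 bases before the start. Among windows not shown, Sgk1 window 2 and Tsc22d3 window 3 had a CRE half-site, and Sgk1 windows 1 and 4 a GRE half-site. Fkbp5 had an E-box and none of the GRE letters in its single window. A match is a description of letters, and binding was not measured.

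**Figure D1:**
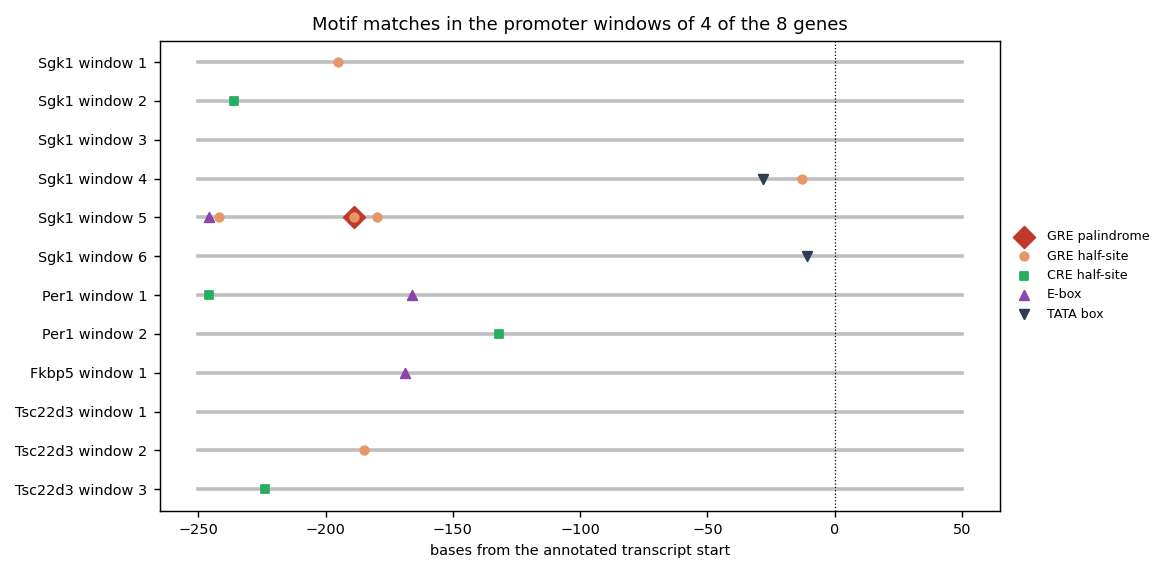
Motif matches along the 12 promoter windows of Sgk1, Per1, Fkbp5 and Tsc22d3, with the distance in bases of each match's first base from the annotated transcript start on the horizontal axis and 1 line per window. The palindrome appears in 1 of the 12 windows, 189 bases before a start of Sgk1.

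Levels are in TPM (a length-scaled share of a library's transcripts), and tables were processed separately, so levels are compared within a table. Differences are log2 values ± SE, tested minus untreated unless stated. In the 3 TPM tables they were taken on log2(TPM + 1), a scale that shrinks the change of low genes, and for the second KA cohort they come from counts. A gene was called at an adjusted p under 0.05. In bulk RNA, fewer cells of a type and less RNA per cell cannot be told apart. Untreated library 3 of the first cohort stood apart: the median log2 deviation from each gene's mean over the table, for the longest 20% of genes minus the shortest 20%, was -1.08 there, against 0.14 to 0.26 in the other 5. Apoe was at 5.36 to 118 TPM in knockout astrocytes, against 2221 to 5024 TPM in wild-type astrocytes, and at 29.7 to 58.6 TPM in Apoe knockout brain with KA, against 830 to 1467 TPM in KA brain. Adora2a, which encodes A2aR, was at 1.75 to 2.15 TPM in the libraries labelled knockdown, against 1.32 to 2.90 TPM in KA brain, so the label is not visible at that gene, and these libraries are called labelled A2aR knockdown below. Summed over 7 astrocyte markers, untreated wild-type astrocytes had 1933 to 2175 TPM. A summed 4191 to 4614 TPM of 5 mural cell and fibroblast markers stood beside them.

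In brain Nr3c1, the receptor itself, was not called in any comparison. First-cohort KA libraries had 27.8, 26.3 and 29.2 TPM, against 34.8, 32.0 and 9.01 TPM in untreated brain. The low value belongs to untreated library 3. The log2 difference was 0.34 ± 0.47 with that library and -0.26 ± 0.09 without it, so its sign rests on 1 library. CNO brain averaged 28.1 ± 3.30 TPM and untreated brain of that set 25.9 ± 2.24 TPM (SD, n = 3 each), and the groups overlapped. In the second cohort the 4 groups ranged from 32.2 TPM in Apoe knockout with KA to 47.0 TPM in KA library 4. All 3 Apoe knockout libraries with KA (34.6, 33.6 and 32.2 TPM) lay below the 4 KA libraries (37.0, 36.2, 37.0 and 47.0 TPM), but on counts the difference was -0.07 ± 0.13 (edgeR, adjusted p = 0.946). As CPM (a library's count scaled to a common total) they overlapped, at 88.7 to 99.0 CPM with the knockout and 73.0 to 119 CPM with KA alone.

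Zbtb16 followed the same library. Its levels were 14.4, 14.5 and 11.6 TPM in first-cohort KA brain, against 17.0, 20.2 and 1.56 TPM in untreated brain. The log2 difference of 0.54 ± 0.77 became -0.44 ± 0.14 without untreated library 3. In the other brain sets its groups overlapped in every comparison, with 7.96 to 27.5 TPM across the second cohort. Across the 25 brain libraries, after centring each table, Zbtb16 and Nr3c1 had a Pearson r of 0.84, given as a description of libraries that share tables. Untreated library 3 of the first cohort, low in both genes, is among them.

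Fkbp5, the feedback partner, averaged 29.8 ± 3.58 TPM in first-cohort KA brain and 26.6 ± 4.66 TPM in untreated brain (n = 3 each). CNO brain was at 29.5 ± 2.33 TPM and its untreated brain at 28.6 ± 2.05 TPM (n = 3 each). In the second cohort the group means were 38.0 ± 6.04 TPM with Apoe knockout and KA, 39.4 ± 3.60 TPM in libraries labelled A2aR knockdown with KA, 40.0 ± 4.44 TPM with KA and 38.8 ± 1.39 TPM untreated (n = 3, 3, 4 and 3). Every pair of groups in the brain overlapped for Fkbp5, and its log2 differences lay between -0.05 and 0.16. An overlap does not show that the groups are equal.

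Tsc22d3 and Sgk1 lay on opposite sides of untreated brain in the 2 KA cohorts. Sgk1 was at 65.0, 83.6 and 53.3 TPM in first-cohort KA brain, against 40.6, 42.2 and 22.2 TPM in untreated brain. All KA libraries were higher, and the log2 difference was 0.95 ± 0.29, or 0.66 ± 0.18 without untreated library 3. In the second cohort it was at 54.0, 63.4, 55.3 and 62.8 TPM in KA brain, against 115, 111 and 119 TPM in untreated brain. All KA libraries were lower there, with a log2 difference of -0.97 ± 0.07. Tsc22d3 was at 50.9, 65.3 and 60.8 TPM in KA brain of the first cohort, against 48.9, 44.6 and 43.4 TPM in untreated brain (0.36 ± 0.16, and 0.08 ± 0.19 with median-ratio scaling, since the median of all genes lay at 0.25 as deposited). In the second cohort it was at 56.2, 54.1, 51.4 and 54.2 TPM in KA brain, against 75.3, 91.1 and 69.5 TPM in untreated brain (-0.51 ± 0.10). The difference between the cohorts was not tested, because their tables were made separately. In CNO brain Sgk1 (95.3, 61.6 and 62.7 TPM) overlapped its untreated libraries (60.7, 45.5 and 64.6 TPM), and so did Tsc22d3, at 86.7, 38.6 and 49.9 TPM in libraries 1 to 3, against 90.6, 55.7 and 70.4 TPM in untreated libraries 1 to 3. Same-numbered libraries of this set deviate together, and Tsc22d3 was lower in the CNO library of all 3 pairs (-0.36 ± 0.11 with the replicate block).

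Per1, the clock protein gene, was lower in second-cohort KA brain, at 32.3, 36.7, 34.9 and 30.2 TPM, against 49.9, 51.8 and 42.0 TPM in untreated brain (-0.49 ± 0.09). First-cohort KA and untreated libraries overlapped, at 16.7 ± 3.32 and 13.6 ± 2.92 TPM (n = 3 each). CNO brain, at 22.4 ± 2.49 TPM, and its untreated brain, at 22.5 ± 2.25 TPM (n = 3 each), overlapped as well.

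Sik1 had the lowest mean TPM of the 8 genes in every brain group. It was at 3.38, 3.30, 3.19 and 3.77 TPM in second-cohort KA brain, against 9.51, 11.4 and 7.75 TPM in untreated brain. All KA libraries were lower, and the log2 difference was -1.44 ± 0.18. First-cohort KA libraries (4.05, 4.73 and 4.93 TPM) overlapped untreated ones (3.75, 4.99 and 1.74 TPM), as did CNO libraries (3.83, 6.71 and 6.46 TPM) and their untreated ones (4.43, 3.52 and 5.34 TPM).

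Rasd1 was lower in first-cohort KA brain, at 25.5, 20.7 and 26.1 TPM, against 60.2, 66.6 and 58.5 TPM in untreated brain. The log2 difference of -1.33 ± 0.16 was -1.36 ± 0.12 without untreated library 3, in which Rasd1 was not low. CNO brain had 18.6, 17.5 and 14.7 TPM, against 25.6, 34.5 and 33.2 TPM in untreated brain (-0.84 ± 0.15). Neither comparison had overlapping libraries. In the second cohort KA libraries (40.7, 30.8, 40.7 and 28.8 TPM) overlapped untreated ones (31.2, 51.1 and 34.2 TPM), at -0.12 ± 0.19, or 0.12 ± 0.18 without untreated library 2.

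**Figure D2:**
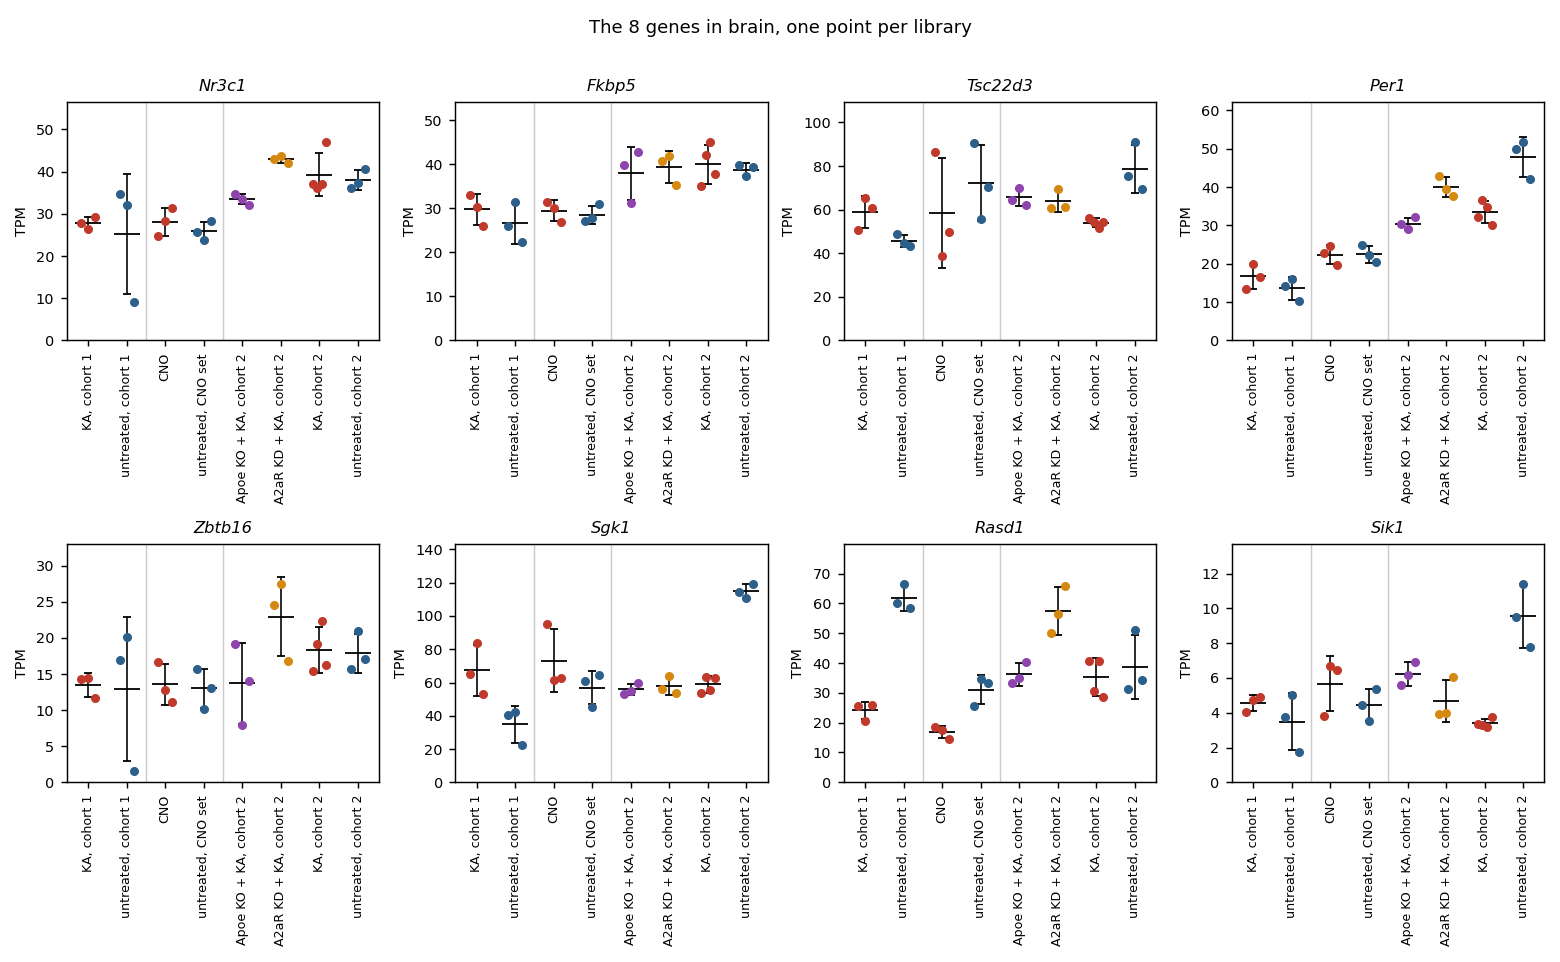
TPM of the 8 genes in each brain library (points), with group means and SD (bars), in the 3 brain sets, whose tables were made separately. Sgk1 sits at 111 to 119 TPM in the untreated second cohort and at 53.3 to 63.9 TPM in its 10 other libraries, while Rasd1 is lowest in KA brain of the first cohort and in CNO brain.

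In the first KA cohort 1 of the 8 genes was called, Rasd1, and it was lower, where 0.183% of all genes were called and 0.0261% were called lower. In CNO brain 1 of 8, again Rasd1, was called, against 3.70% of all genes and 0.233% called lower. These were 571 genes, and 928 with the replicate block. In the second cohort 2 of 8, Sgk1 and Sik1, were called lower in KA brain, against 0.0558% of all genes and 0.0300% called lower. The DESeq2 Wald test called 4 of 8 there, Per1 and Tsc22d3 in addition. The Rasd1 call was lost on leaving out any first-cohort library but untreated 3 (-1.23 to -1.39), and in the CNO set on leaving out CNO library 2 or 3 or untreated library 2 or 3 (-0.74 to -0.86). These contrasts chose the members, so nothing is read from those counts. In the untreated second-cohort libraries Xist, transcribed from an inactive X, stood at 122 to 145 TPM and the Y-linked Ddx3y at 0.130 to 0.400 TPM, while the other 10 libraries had Xist at or below 0.310 TPM and Ddx3y at 20.3 to 34.2 TPM. Sex and treatment therefore cannot be told apart there, and Tsc22d3 is X-linked. Libraries of the other 2 brain sets had Xist at or below 0.160 TPM.

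The knockout and knockdown comparisons within KA brain did not choose the members and use libraries of 1 sex pattern. They share the 4 KA libraries with the comparison above and with each other. Sgk1 and Sik1 were selected as low in those 4 libraries, which are the reference here. Higher values of these genes elsewhere may follow partly from that selection, so their p-values here are only a description. None of the 8 genes passed the edgeR test in either comparison, where 0.112% and 0.0386% of all genes did. In these comparisons 2 and 4 members, Sik1 among them, had an unadjusted p under 0.05, as did 9.33% and 9.25% of all genes. Sik1 was at 5.59, 6.14 and 6.93 TPM in Apoe knockout brain with KA, above all 4 KA libraries, with a log2 difference of 0.86 ± 0.17 (edgeR, adjusted p = 0.134). The DESeq2 Wald test gave an adjusted p of 0.00234 for it. Tsc22d3, at 64.6, 70.01 and 62.2 TPM, also lay above all KA libraries (0.31 ± 0.10, edgeR, adjusted p = 0.373).

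In libraries labelled A2aR knockdown with KA, Rasd1 was at 49.98, 56.5 and 65.8 TPM, above all 4 KA libraries, by 0.80 ± 0.19 (edgeR, adjusted p = 0.278; DESeq2, adjusted p = 0.0147). Per1, at 42.9, 39.6 and 37.7 TPM, was above them by 0.34 ± 0.09 (edgeR, adjusted p = 0.336). Sik1 and Tsc22d3 were above them too, by 0.47 ± 0.18 and 0.26 ± 0.10 (edgeR, adjusted p = 0.464 and 0.489). No other member lay apart from the KA libraries there. How many of all genes lie apart in these knockout and knockdown comparisons was not counted, so nothing about the members is read from it. Within the second cohort the order of Sik1 levels was untreated, Apoe knockout with KA, labelled A2aR knockdown with KA, and KA, and the middle pair overlapped. Sik1 was selected on the untreated and KA libraries, so their places in this order are a description. For Sgk1 the 3 KA-treated groups overlapped one another, at 56.0 ± 3.31, 57.9 ± 5.36 and 58.9 ± 4.94 TPM for Apoe knockout, labelled A2aR knockdown and KA alone (n = 3, 3 and 4).

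Related genes in brain came from lists of glucocorticoid-induced genes other than the members (20 genes), steroid receptors with their chaperones and steroid handling (10), kinase relatives and partners of Sgk1 and Sik1 (14), clock genes (13) and activity-induced immediate early genes (17). Of all 5 lists, 2 genes were called in any of the 5 brain comparisons. Mt2 and Mt1, metal-binding metallothioneins of the glucocorticoid list, rose in CNO brain. Mt2 was at 1010 ± 25.7 TPM, against 471 ± 26.8 TPM untreated (1.10 ± 0.08, n = 3 each, limma, adjusted p = 0.000975), and Mt1 at 1203 ± 106 TPM, against 775 ± 57.5 TPM untreated (0.63 ± 0.10, n = 3 each, limma, adjusted p = 0.0143). The median log2 difference of the 17 immediate early genes tested in second-cohort KA brain was -0.69, of the 16 tested in the first cohort -0.50, and in libraries labelled A2aR knockdown with KA 0.74, with none called and 10, 8 and 10 at an unadjusted p under 0.05. Over all genes tested there the medians were 0.00, 0.25 and -0.01, and 6.72%, 13.5% and 9.25% had an unadjusted p under 0.05. The second-cohort and knockdown values share the same KA libraries, and sex is confounded with treatment in the former. Summed levels of the 17 genes overlapped in the CNO set, at 329 to 842 TPM, against 293 to 481 TPM untreated. They also overlapped between Apoe knockout with KA, at 432 to 464 TPM, and KA alone, at 355 to 547 TPM. In CNO brain 4 of 7 astrocyte and 6 of 6 microglia markers rose, where 3.70% of all genes were called in either direction. Their summed levels were 3045 to 3495 TPM and 663 to 783 TPM, against 994 to 1099 TPM and 290 to 314 TPM untreated. Gfap, the intermediate filament gene of reactive astrocytes, made up most of the first sum, at 2423 ± 243 TPM, against 293 ± 29.7 TPM untreated (n = 3 each). The other 6 astrocyte markers summed to 902 to 946 TPM, against 674 to 801 TPM untreated, and Slc1a2, a glutamate transporter gene, was at 0.998 times its untreated level. In the first cohort the same sums were 1566 to 3072 TPM and 662 to 1571 TPM in KA brain, against 562 to 1193 TPM and 308 to 318 TPM untreated, with no marker called. The 4 choroid plexus and ependyma markers also lay apart there, at a summed 1495 to 2257 TPM in KA brain, against 141 to 1097 TPM untreated, and overlapped in the CNO set, at 14.8 to 712 TPM, against 49.5 to 232 TPM untreated. Their part in the members' levels was not tested.

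In untreated astrocytes without Apoe, the mean TPM of Sgk1 was 6.69 times that of wild-type astrocytes. Knockout libraries had 227, 212 and 225 TPM, against 31.0, 34.0 and 34.3 TPM in wild type, with means of 221.5 ± 7.96 and 33.1 ± 1.81 TPM (n = 3 each). The difference of 2.71 ± 0.09 passed the test (limma, adjusted p = 2.32e-16). Sik1 rose to 18.4, 15.9 and 20.97 TPM in knockout cells, against 5.47, 5.81 and 5.07 TPM in wild type (1.58 ± 0.18, limma, adjusted p = 1.4e-07). Fkbp5 was at 12.4 ± 0.825 TPM in knockout and 5.73 ± 0.638 TPM in wild-type cells (1.00 ± 0.12, n = 3 each, limma, adjusted p = 5.48e-07).

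Per1 also rose, to 15.5 ± 0.824 TPM in knockout cells, against 8.64 ± 0.671 TPM in wild type (0.78 ± 0.11, n = 3 each, limma, adjusted p = 6.64e-06). Tsc22d3 was lower, at 13.8, 13.6 and 14.3 TPM in knockout cells and 24.4, 24.5 and 24.6 TPM in wild type. It fell by 0.77 ± 0.08 (n = 3 each, limma, adjusted p = 2.05e-08). Nr3c1 was at 35.0 ± 0.743 TPM in knockout and 47.9 ± 2.13 TPM in wild-type cells (-0.44 ± 0.28, n = 3 each, limma, adjusted p = 0.219), and a fit to these 2 groups alone called it (-0.44 ± 0.05, limma, adjusted p = 2.38e-04). Of the 6 genes tested 5 were called, 4 higher and 1 lower, where 44.9% of all genes were called, 23.9% higher and 21.1% lower. The astrocyte markers fell with it: 7 of 7 were lower in knockout cells, with summed levels of 453 to 466 TPM, against 1933 to 2175 TPM in wild type, and their part in the members' levels was not tested. Xist differed between these 2 groups as well, as given below.

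Wild-type astrocytes given either fatty acid had more Sgk1, Per1, Sik1 and Fkbp5 messenger RNA than untreated ones, and less Nr3c1. Sex-linked Ddx3y differed between these groups as well, as given below. Sgk1 was at 248, 252 and 244 TPM with palmitic acid and at 135, 105 and 113 TPM with oleic acid, against the 31.0 to 34.3 TPM of untreated cells. Palmitic acid raised it by 2.87 ± 0.09 and oleic acid by 1.79 ± 0.09 (limma, adjusted p = 8.47e-17 and 4.13e-13). Per1 rose more with oleic acid, to 24.2 ± 2.27 TPM, than with palmitic acid, to 18.1 ± 0.978 TPM, against 8.64 ± 0.671 TPM untreated, and its libraries under the 2 acids did not overlap, though that difference was not tested. Its changes were 0.99 ± 0.11 with palmitic acid and 1.38 ± 0.11 with oleic acid (limma, adjusted p = 1.33e-07 and 1.5e-09).

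Sik1 was at 8.57, 14.1 and 9.86 TPM with palmitic acid and 13.6, 12.4 and 12.1 TPM with oleic acid, above every untreated library. Both rises passed the test (0.85 ± 0.18 and 1.08 ± 0.18, limma, adjusted p = 2.54e-04 and 1.9e-05). Fkbp5 rose to 11.2 ± 1.76 TPM with palmitic acid and 12.9 ± 1.51 TPM with oleic acid, against 5.73 ± 0.638 TPM untreated (0.85 ± 0.12 and 1.04 ± 0.12, limma, adjusted p = 3.19e-06 and 2.68e-07). Tsc22d3 changed little: it fell by 0.22 ± 0.08 with oleic acid (limma, adjusted p = 0.0176) and was at -0.13 ± 0.08 with palmitic acid (limma, adjusted p = 0.149). The oleic acid call was lost without oleic acid library 2 (-0.15 ± 0.08, limma, adjusted p = 0.12) and in a fit to the compared groups alone (limma, adjusted p = 0.0709). Of the 6 genes tested 5 were called with palmitic acid and 6 with oleic acid, 4 of them higher with each, where 59.8% of all genes were called with either acid. All genes split into 26.8% higher and 33.1% lower with palmitic acid, and 31.2% higher and 28.6% lower with oleic acid.

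Nr3c1 fell in fatty acid-treated wild-type astrocytes, to 27.8, 29.1 and 23.3 TPM with palmitic acid and 20.1, 9.78 and 17.9 TPM with oleic acid, against 46.5, 46.9 and 50.4 TPM untreated. The falls of 0.82 ± 0.28 and 1.59 ± 0.28 passed the test (limma, adjusted p = 0.0161 and 6.1e-05), and the palmitic acid call was lost without palmitic acid library 3 (limma, adjusted p = 0.0611). The 3 astrocyte libraries with the lowest length measure, at -0.64, -0.30 and -0.25, had the 3 lowest Nr3c1 levels, at 4.43, 13.96 and 9.78 TPM. They are knockout palmitic acid libraries 1 and 3 and wild-type oleic acid library 2. The merged annotated exons of Nr3c1 cover 7684 bases, more than those of 82.8% of the genes tested in astrocytes. With the length trend removed from each library, an alternative chosen after seeing the data, the falls were 0.66 ± 0.21 and 1.47 ± 0.21 and remained called (limma, adjusted p = 0.00844 and 3.54e-06).

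**Figure D3:**
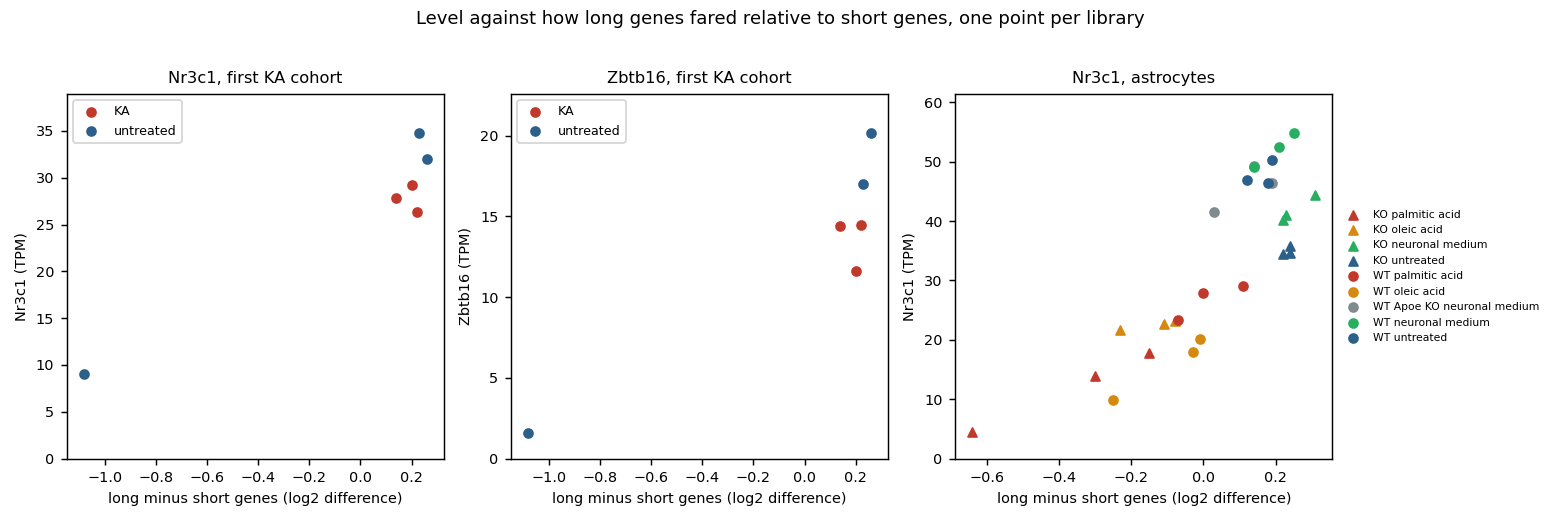
TPM of Nr3c1 and Zbtb16 in the first KA cohort and of Nr3c1 in astrocytes against the median log2 deviation from the gene's mean of the longest minus the shortest 20% of genes in each library, with 1 point per library. Untreated library 3, at -1.08, and knockout palmitic acid library 1, at -0.64, hold the lowest Nr3c1 values of their tables, 9.01 and 4.43 TPM.

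In Apoe knockout astrocytes, where Sgk1 began at 221.5 ± 7.96 TPM, palmitic acid raised it further, while oleic acid and neuronal conditional medium lowered it. Palmitic acid took it to 262, 324 and 306 TPM, above every untreated knockout library (0.42 ± 0.09, limma, adjusted p = 2.03e-04). Oleic acid lowered it to 107, 109 and 114 TPM (-1.01 ± 0.09, limma, adjusted p = 4.86e-08), and neuronal conditional medium to 78.7, 78.0 and 63.7 TPM (-1.59 ± 0.09, limma, adjusted p = 6.96e-12). Neuronal conditional medium on wild-type astrocytes left Sgk1 at 30.2 ± 0.129 TPM, and medium from Apoe knockout neurons at 34.5 ± 2.11 TPM, against 33.1 ± 1.81 TPM untreated (n = 3 each, limma, adjusted p = 0.926 and 0.914).

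The change in knockout minus that in wild-type astrocytes was called for Sgk1 under all 3 treatments. It was -2.45 ± 0.12 for palmitic acid, -2.80 ± 0.12 for oleic acid and -1.46 ± 0.12 for neuronal conditional medium (limma interaction, adjusted p = 6.43e-13, 3.11e-13 and 2.05e-08). These terms and the treatment changes share the untreated libraries of both genotypes, so the high untreated knockout level enters each of them. Those untreated groups also differ in Xist, as given below, and the wild-type acid groups in Ddx3y. Genotype in the interaction terms of all members therefore cannot be told apart from the sex make-up of the cultures. In order of level, Sgk1 was highest in knockout cells with palmitic acid, then wild-type palmitic acid, untreated knockout, wild-type oleic acid, knockout oleic acid, knockout medium, wild type with Apoe knockout medium, untreated wild type and wild-type medium. The libraries of wild-type and knockout cells with oleic acid overlapped, as did those of wild-type cells with Apoe knockout medium and untreated wild-type cells, and every other neighbouring pair was apart.

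Per1 in knockout astrocytes was at 19.2 ± 1.15 TPM with palmitic acid, 12.5 ± 2.35 TPM with oleic acid and 9.17 ± 0.535 TPM with neuronal conditional medium, against 15.5 ± 0.824 TPM untreated (n = 3 each). The medium fall of 0.70 ± 0.11 (limma, adjusted p = 4.49e-05) did not depend on 1 library. The palmitic acid rise (0.29 ± 0.11, limma, adjusted p = 0.0274) lost its call without palmitic acid library 3 or untreated library 1, at 0.24 ± 0.13 each. The oleic acid fall (-0.30 ± 0.11, limma, adjusted p = 0.0379) lost it without oleic acid library 1, at -0.15 ± 0.10, or without untreated library 2 or 3, at -0.28 ± 0.13 each. It was also lost with no filter, with median-ratio scaling, in a fit to the compared groups alone and with the length trend removed (-0.23 to -0.30, limma, adjusted p = 0.0623 to 0.122). The interaction was called for all 3 treatments, at -0.70 ± 0.16, -1.68 ± 0.16 and -0.66 ± 0.16 (limma, adjusted p = 8.67e-04, 4.68e-08 and 0.00529). The palmitic acid term was -0.25 ± 0.17 with median-ratio scaling and -0.28 ± 0.16 with the length trend removed, and no longer called (limma, adjusted p = 0.204 and 0.152), where the median of all genes lay at -0.35 as deposited.

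Fkbp5 fell by 0.93 ± 0.12 in knockout cells with palmitic acid, to 6.05 ± 0.889 TPM, and by 0.70 ± 0.12 with neuronal conditional medium, to 7.29 ± 1.03 TPM, against 12.4 ± 0.825 TPM untreated (n = 3 each, limma, adjusted p = 5.74e-07 and 1.02e-04). With the length trend removed the palmitic acid change was -0.13 ± 0.12 and was not called (limma, adjusted p = 0.371). The median of all genes in that comparison lay at -0.47 as deposited. Oleic acid left Fkbp5 at 14.5 ± 1.03 TPM (0.21 ± 0.12, n = 3, limma, adjusted p = 0.176), called with the length trend removed (0.45 ± 0.12, limma, adjusted p = 0.00668). The Fkbp5 interaction was -1.78 ± 0.17 for palmitic acid, -0.83 ± 0.17 for oleic acid and -0.73 ± 0.17 for medium (limma, adjusted p = 2.02e-08, 7.75e-04 and 0.00421).

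Tsc22d3 in knockout cells rose to 20.98 ± 1.35 TPM with palmitic acid and 19.6 ± 1.08 TPM with neuronal conditional medium, against 13.9 ± 0.361 TPM untreated (0.56 ± 0.08 and 0.46 ± 0.08, n = 3 each, limma, adjusted p = 1.01e-06 and 4.95e-05). With oleic acid it was at 15.8 ± 0.856 TPM (0.17 ± 0.08, n = 3, limma, adjusted p = 0.0816), called with median-ratio scaling (0.19 ± 0.08, limma, adjusted p = 0.0481). Its interaction terms were positive, at 0.69 ± 0.11, 0.38 ± 0.11 and 0.57 ± 0.11 for palmitic acid, oleic acid and medium (limma, adjusted p = 1.53e-05, 0.00894 and 4.98e-04).

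Sik1 was at 11.9, 14.8 and 13.2 TPM with palmitic acid, 14.4, 14.6 and 13.8 TPM with oleic acid and 10, 16.3 and 8.61 TPM with medium in knockout cells, against 18.4, 15.9 and 20.97 TPM untreated. Medium lowered it by 0.66 ± 0.18 (limma, adjusted p = 0.00589), though 1 library lay inside the untreated range and the call was lost without medium library 3 (-0.48 ± 0.18, limma, adjusted p = 0.0533). The palmitic acid fall (-0.44 ± 0.18, limma, adjusted p = 0.0295) turned to 0.06 ± 0.17 with median-ratio scaling and 0.04 ± 0.17 with the length trend removed, so its direction depends on the scaling. It was also lost with no filter (limma, adjusted p = 0.0541) and without palmitic acid library 1 or 3, or untreated library 1 or 3, at -0.36 ± 0.20, -0.43 ± 0.20, -0.43 ± 0.20 and -0.34 ± 0.20. Sik1 interaction terms were -1.29 ± 0.25 for palmitic and -1.42 ± 0.25 for oleic acid (limma, adjusted p = 1.73e-04 and 1.40e-04), and -0.51 ± 0.25 for medium (limma, adjusted p = 0.175), which was called without knockout medium library 2 (-0.76 ± 0.21).

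Nr3c1 was at 4.43, 17.7 and 13.96 TPM in knockout cells with palmitic acid, against 34.6, 34.5 and 35.8 TPM untreated. It fell by 1.65 ± 0.28 (limma, adjusted p = 2.26e-05), by 0.95 ± 0.21 with the length trend removed (limma, adjusted p = 3.18e-04) and by 1.10 ± 0.18 without palmitic acid library 1. With medium it was at 41.0, 40.2 and 44.3 TPM, above every untreated library but not called (0.25 ± 0.28, limma, adjusted p = 0.56), and called in a fit to these groups alone (0.25 ± 0.05, limma, adjusted p = 0.00758). With oleic acid it was at 22.5 ± 0.752 TPM, below every untreated library but not called (-0.61 ± 0.28, n = 3, limma, adjusted p = 0.0876), and called in a fit to these groups alone (-0.61 ± 0.06, limma, adjusted p = 2.0e-04). Its interaction with palmitic acid, -0.82 ± 0.40 (limma, adjusted p = 0.0852), was called without knockout palmitic acid library 2 (-1.17 ± 0.36) or 3 (-1.01 ± 0.42). Its interaction with oleic acid, 0.98 ± 0.40 (limma, adjusted p = 0.0731), was called with median-ratio scaling, at 1.03 ± 0.34, with the length trend removed, with only the groups compared and without wild-type oleic acid library 1.

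Of the 6 genes tested in knockout astrocytes, 6 were called with palmitic acid, 3 in each direction, where 75.3% of all genes were called, 19.9% higher and 55.4% lower. With oleic acid 2 were called, both lower, where 41.8% of all genes were called and 20.1% were lower. With medium 1 was higher and 4 lower, where 31.2% of all genes were called, 18.7% higher and 12.6% lower. Of the palmitic acid interaction terms 1 of 6 was higher and 4 lower, where 57.6% of all genes were called, 14.3% higher and 43.2% lower. For oleic acid 1 was higher and 4 lower, where 29.6% were called, 13.8% higher and 15.8% lower. For medium 1 was higher and 3 lower, where 18.5% were called, 11.6% higher and 6.95% lower. None of the 6 was called with medium from either kind of neuron on wild-type astrocytes, or between the 2 media, by limma, with 0, 0 and 1 at an unadjusted p under 0.05. In these comparisons 0.0371%, 1.5% and 1.42% of all genes were called. Rasd1 was at 0 to 0.860 TPM and Zbtb16 at 0 to 0.230 TPM in all 27 astrocyte libraries, under the 1 TPM filter, so they were not tested and a value of 0 is only a listed value.

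**Figure D4:**
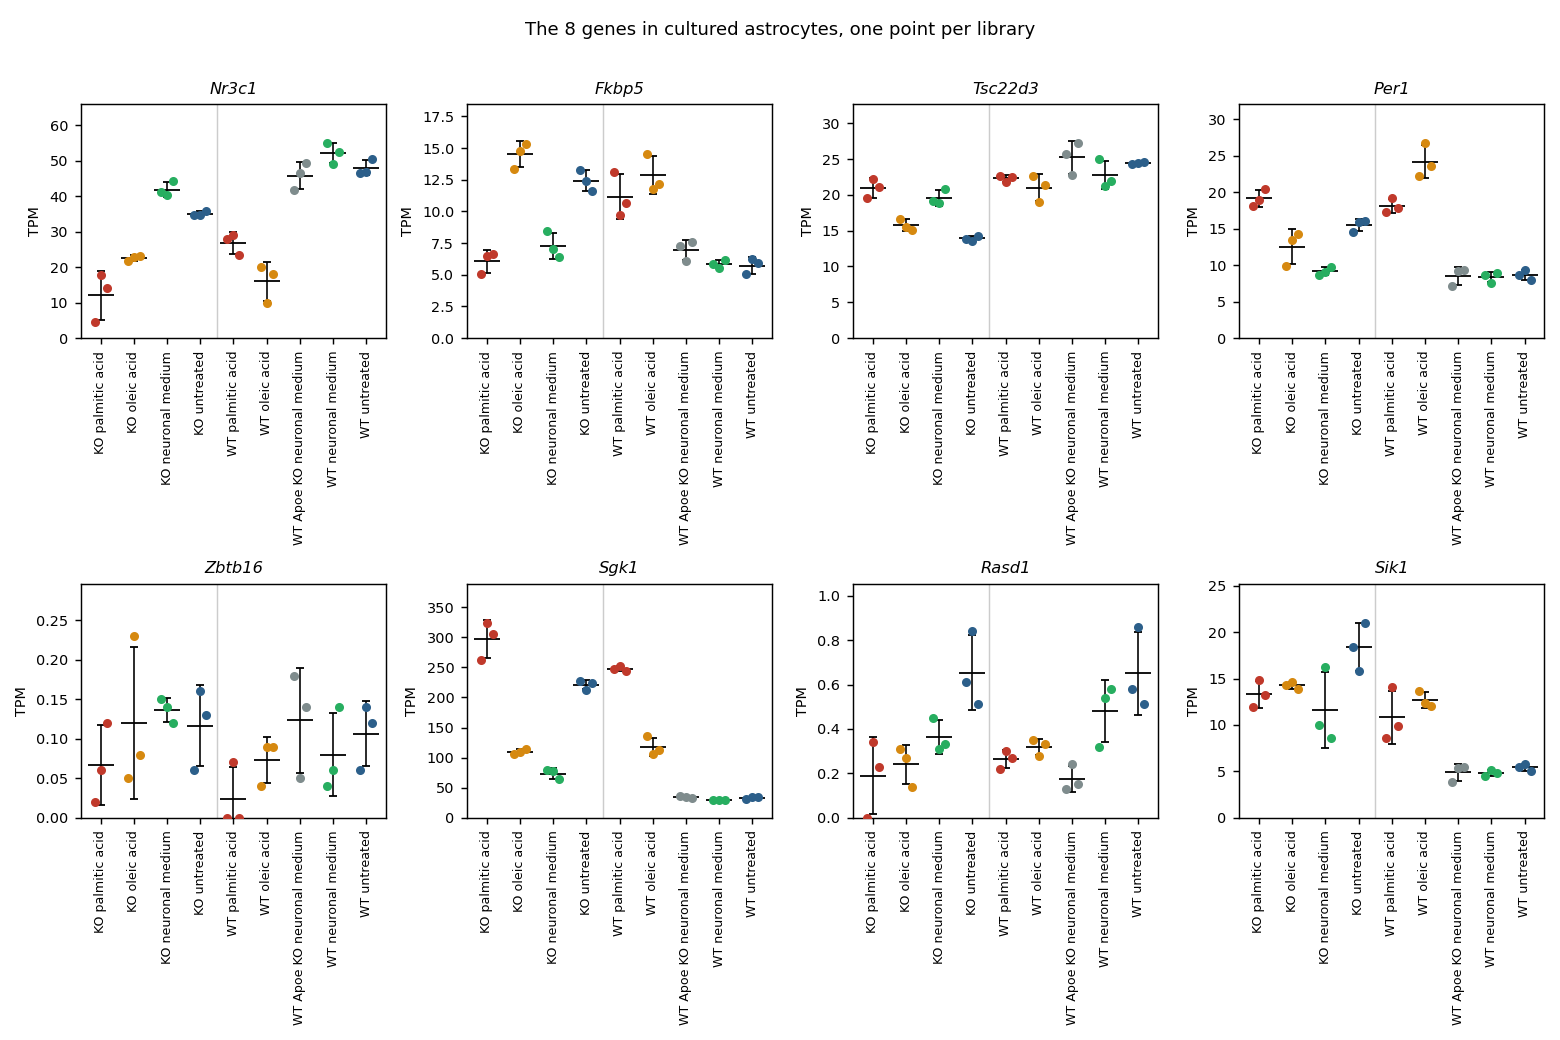
TPM of the 8 genes in each astrocyte library (points), with group means and SD (bars), for 4 Apoe knockout groups and 5 wild-type groups. Sgk1 lies at 30.1 to 36.3 TPM in wild-type cells that were untreated or given medium and between 63.7 and 324 TPM in the other 6 groups, and Rasd1 and Zbtb16 stay below 1 TPM.

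**Figure D5:**
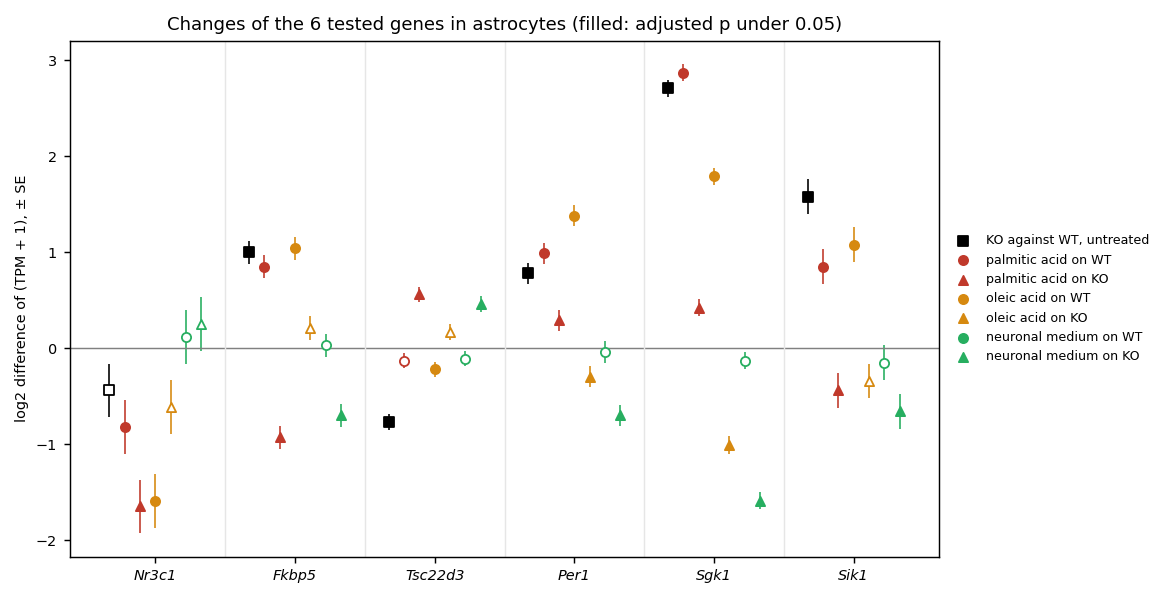
Differences in log2(TPM + 1) ± SE of the 6 tested genes in 7 astrocyte comparisons: treated against untreated cells of the same genotype (triangles, knockout; circles, wild type), and untreated knockout against wild type (squares). Filled symbols passed the limma test, and Sgk1 spans the widest range, 2.87 with palmitic acid on wild-type cells to -1.59 with medium on knockout cells.

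Marker levels moved with these groups, in both directions. Of all genes, 55.4% were called lower and 19.9% higher with palmitic acid on knockout cells. On wild-type cells 33.1% were lower and 26.8% higher with palmitic acid, and 28.6% lower and 31.2% higher with oleic acid. With oleic acid on knockout cells 41.8% were called in either direction. The 7 astrocyte markers summed to 58.4 to 76.7 TPM in knockout cells with palmitic acid, against 453 to 466 TPM in untreated knockout cells, with 7 of 7 called lower, and Gfap was at 2.08 to 2.56 TPM there. These libraries also had the lowest mitochondrial share of TPM, 1.51% to 2.94%, against 6.41% to 6.64% in untreated knockout cells. In wild-type cells they summed to 636 to 779 TPM with palmitic acid (7 of 7 lower) and 1039 to 1072 TPM with oleic acid (6 lower, 1 higher), against 1933 to 2175 TPM untreated. With neuronal conditional medium on knockout cells the astrocyte markers summed to 1040 to 1139 TPM, against 453 to 466 TPM untreated. Oligodendrocyte precursor markers summed to 209 to 216 TPM there, against 66.3 to 67.6 TPM untreated. Microglia markers were lower with that medium, at 184 to 185 TPM, against 205 to 216 TPM untreated. The 5 mural cell and fibroblast markers summed to 642 to 713 TPM in knockout cells with palmitic acid, against 3848 to 3915 TPM untreated. In wild-type cells they summed to 1392 to 1617 TPM with palmitic acid (5 of 5 lower) and 1897 to 2175 TPM with oleic acid (4 lower), against 4191 to 4614 TPM untreated. The 6 microglia markers summed to 88.1 to 91.2 TPM in knockout cells with palmitic acid (6 of 6 lower) and 494 to 528 TPM with oleic acid (4 higher), against 205 to 216 TPM untreated. In wild-type cells their sums were 378 to 422 TPM with palmitic acid (3 higher, 3 lower) and 413 to 444 TPM with oleic acid (3 higher, 2 lower), against 246 to 266 TPM untreated. Y-linked Ddx3y was at 0.520 to 1.35 TPM with oleic acid and 3.22 to 4.49 TPM with palmitic acid in wild-type cells, against 14.9 to 19.1 TPM untreated, and Xist at 2.79 to 3.81 TPM in untreated knockout cells, against 30.7 to 36.8 TPM in untreated wild-type cells. The sex make-up of the cultures therefore cannot be told apart from treatment in wild-type cells, or from genotype in untreated cells. The interaction terms take in these groups, so the same limit holds for them. The part of these markers in the members' levels was not tested.

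Other genes of the same pathways were called in both directions in astrocytes. Of the 19 other glucocorticoid-induced genes tested, 8 were higher and 7 lower in untreated knockout against wild-type cells, 10 higher and 6 lower with palmitic acid on wild-type cells, 10 higher and 5 lower with oleic acid on wild-type cells, and 13 higher and 5 lower with palmitic acid on knockout cells. Of all genes 44.9%, 59.8%, 59.8% and 75.3% were called in these 4 comparisons, split into 23.9% higher and 21.1% lower, 26.8% and 33.1%, 31.2% and 28.6%, and 19.9% and 55.4%. Errfi1, a brake on growth factor receptors, was at 39.1 ± 2.04 TPM in untreated knockout cells, against 8.997 ± 0.543 TPM in wild type (2.0 ± 0.09, n = 3 each, limma, adjusted p = 9.26e-14). It rose to 51.8 ± 3.35 TPM with palmitic acid and 25.2 ± 1.83 TPM with oleic acid on wild-type cells (2.40 ± 0.09 and 1.39 ± 0.09, n = 3 each, limma, adjusted p = 3.53e-15 and 6.3e-11). Mt2 was lower in the knockout, at 862 ± 12.3 TPM, against 2597 ± 189 TPM in wild type (-1.59 ± 0.07, n = 3 each, limma, adjusted p = 1.82e-14).

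Immediate early genes, which CREB and growth signals switch on, were called higher in 14 of 17 in untreated knockout against wild-type cells, in 14 with palmitic acid and in 14 with oleic acid on wild-type cells, with medians of 1.16, 1.81 and 1.57, where medians of all genes were 0.05, -0.08 and 0.00 and 23.9%, 26.8% and 31.2% of all genes were called higher. Nr4a1, an orphan nuclear receptor gene, was at 48.7 ± 2.30 TPM in untreated knockout cells, against 2.83 ± 0.413 TPM in wild type (3.70 ± 0.15, n = 3 each, limma, adjusted p = 1.07e-14). In knockout cells oleic acid lowered 12 of the 17 and raised none, where 20.1% of all genes were lower, and its interaction term was called lower for 16 of 17, with a median of -2.06, where 15.8% of all genes were lower. Among partners of Sgk1 and Sik1, Ndrg1, which encodes a substrate of the Sgk1 kinase, fell in the 4 comparisons with a rise of Sgk1. It was at 134 ± 3.97 TPM in untreated knockout cells, against 351 ± 10.8 TPM in wild type (-1.38 ± 0.06, n = 3 each, limma, adjusted p = 7.47e-15), and at 157 ± 7.58 TPM with palmitic acid on wild-type cells (-1.15 ± 0.06, n = 3, limma, adjusted p = 1.07e-13). Sik2, a relative of Sik1, rose with oleic acid on wild-type cells to 23.96 ± 3.86 TPM, against 11.2 ± 0.151 TPM untreated (1.03 ± 0.12, n = 3 each, limma, adjusted p = 1.55e-07).

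Clock genes other than Per1 were called 6 higher and 4 lower of 13 with palmitic acid on wild-type cells, with Nr1d1, a nuclear receptor that represses the clock, at 108 ± 5.56 TPM, against 30.3 ± 1.04 TPM untreated (1.80 ± 0.07, n = 3 each, limma, adjusted p = 1.17e-15). Of all genes 26.8% were higher and 33.1% lower there. In knockout cells palmitic acid lowered 8 of the 13 and raised 3, near the 55.4% lower and 19.9% higher of all genes. Of steroid receptors and their chaperones 2 of 10 were higher and 2 lower in untreated knockout against wild-type cells, near the 44.9% of all genes called in either direction. Nr3c2, the mineralocorticoid receptor gene, was at 1.43 ± 0.275 TPM in knockout cells, against 2.72 ± 0.111 TPM in wild type (-0.62 ± 0.11, n = 3 each, limma, adjusted p = 1.05e-04).

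Genes most like each member over libraries were ranked by Pearson r of log2(TPM + 1), centred on each table, as a description of libraries that share groups. Over the 27 astrocyte libraries, Sgk1 was nearest to Errfi1 (r = 0.981), Plaur (0.967) and Epha2 (0.966). Per1 was nearest to Ing5 (0.943), Sertad1 (0.939) and Syn1 (0.929). Fkbp5 was nearest to Jade2 (0.943), Sdc4 (0.931) and Pnpla7 (0.930), Tsc22d3 to Gosr2 (0.904), Msmo1 (0.862) and Fads1 (0.861), and Nr3c1 to Pank3 (0.991), Zranb2 (0.989) and Msl2 (0.989). Nr3c1 also had r = 0.92 with the length measure over these 27 libraries. Among the members Sgk1 had r = 0.83 with Sik1 and 0.81 with Per1, while Tsc22d3 had r = -0.77 with Sik1.

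Over the 25 brain libraries, Sgk1 was nearest to Eif2s3x (r = 0.851), Nfkbia (0.850) and Pacs2 (0.813), and Sik1 to Eif2s3x (0.795), Eif1a (0.787) and Fos (0.786). Eif2s3x is X-linked and known to escape X inactivation, and the second cohort's untreated libraries, the highest in Sgk1 and Sik1, are those with Xist. Rasd1 was nearest to Ddn (0.838), Lrrn2 (0.835) and Psd (0.826), and Per1 to Nfkbia (0.797), Snph (0.770) and Eif2s3x (0.737). Tsc22d3 was nearest to Asic4 (0.833), Kcng4 (0.83) and Kcnh2 (0.821), Fkbp5 to Nisch (0.734), Olfml2b (0.728) and Dhx33 (0.726), Zbtb16 to Rab11fip3 (0.921), Foxk1 (0.920) and St3gal2 (0.920), and Nr3c1 to Herc3 (0.956), Fam171b (0.952) and Sstr4 (0.952). In the first cohort Zbtb16 and Nr3c1 each had r = 0.98 with the length measure, over 6 libraries that include untreated library 3. How far their brain values rest on that library was not tested. Per1 and Sgk1 had r = 0.71 with each other in brain.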

How the data were processed

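RNA was sequenced from 25 brain and 27 cultured astrocyte libraries (total RNA in Trizol and TruSeq libraries, per the labels' protocols). The submitters' processing notes list mm10 and the tools RSEM, StringTie and HISAT2, with no role for any. Astrocytes, CNO brain and the first KA cohort have TPM values as deposited by the authors, whose depth is unknown. The second KA cohort has read counts as deposited by the authors, with TPM values beside them.

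TPM tables were tested with limma 3.58.1 (trend) on log2(TPM + 1) for genes at 1 TPM or more in 3 libraries. Counts were tested with edgeR 4.0.16 (quasi-likelihood, TMM, filterByExpr, all 4 groups in the fit), in R 4.3.3. Every astrocyte group entered one fit. Benjamini-Hochberg adjustment ran over all genes of a comparison, with a threshold of 0.05. The steps were tested on simulated data. Alternatives were another pseudocount (0.1), no filter, median-ratio scaling, DESeq2 1.42.0, the compared groups alone, the replicate block and each library left out. Removing the length trend was added after seeing the data. In the CNO set each treated library deviated most like the same-numbered untreated one (r = 0.244, 0.232 and 0.119). Whether these are true pairs is not known, so CNO values come from the unblocked fit unless stated. The blocked fit of that set called the same member. No libraries were identical.

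The members, related gene lists and marker lists were chosen with earlier results of these data known. Genes named beside the members were the 3 most like each member and, per list and comparison, up to 4 with the smallest p past the threshold. Those most like Sik1 in astrocytes are not reported here. Markers, sex-linked genes and the targeted genes were named as checks. Motif searches used RefSeq windows (GRCm38.p6), matched by symbol.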

Additional observations from a re-analysis of the deposited data

Results flagged for a closer look

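Nr3c1 in KA library 4 of the second cohort, at 47.0 TPM, stood apart from the other 3 KA libraries at 36.2 to 37.0 TPM. The gap was 0.925 of the group's range, above the 95% critical value of Dixon's test for 4 samples, and chance alone marks about 1 in 20 such groups. On CPM from the counts of the same table, KA library 2, at 73.0 CPM, lay furthest from its neighbour, and the gap was 0.603 of the range, under that value.

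Treatment changes in Apoe knockout and wild-type astrocytes differed by the limma interaction test for 14 of 18 gene and treatment pairs. Of all genes, 57.6% were called by that test for palmitic acid, 29.6% for oleic acid and 18.5% for medium. Groups in these terms also differ in Xist or Ddx3y, as given above, so genotype cannot be told apart from sex make-up here. Knockout minus wild-type values for palmitic acid were -2.45 for Sgk1, -1.29 for Sik1, -1.78 for Fkbp5, 0.69 for Tsc22d3 and -0.70 for Per1. For oleic acid they were -2.80 for Sgk1, -1.42 for Sik1, -0.83 for Fkbp5, 0.38 for Tsc22d3 and -1.68 for Per1. For neuronal conditional medium they were -1.46 for Sgk1, -0.73 for Fkbp5, 0.57 for Tsc22d3 and -0.66 for Per1.

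In the 2 KA cohorts all libraries of Sgk1 moved in opposite directions, by 0.95 in the first and -0.97 in the second, and those of Tsc22d3 by 0.36 and -0.51. In the first cohort the median of all genes lay at 0.25, and median-ratio scaling reduced the Tsc22d3 value to less than its SE, as given above. The difference between the cohorts was not tested, and the untreated libraries of the second cohort alone carried Xist.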

How the results depend on the processing

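Of 1428 results for single genes under the alternatives, 1327 kept their direction and side of the threshold, 34 lost a call, 18 gained one, 2 called ones reversed and 47 that were called neither way changed sign. Of those 47, 5 were over 0.1 in size both ways. They are Nr3c1 (0.34 to -0.26) and Zbtb16 (0.54 to -0.44) in the first KA cohort without untreated library 3, Fkbp5 there (0.16 to -0.11 with median-ratio scaling and -0.22 with the length trend removed), and Rasd1 in the second without untreated library 2 (-0.12 to 0.12). Sik1 with palmitic acid on knockout astrocytes reversed to 0.06 with median-ratio scaling and 0.04 with the length trend removed. Members called in the first KA cohort were 0 without the filter and 0 with the replicate block, and in CNO brain 0 without the filter. In second-cohort KA brain they were 1 with the replicate block and 4 with DESeq2, and with DESeq2 1 in Apoe knockout and 1 in labelled A2aR knockdown brain with KA. Without the filter 1 (Rasd1) was called with Apoe knockout neuronal medium. Leaving out single libraries gave 0 to 1 in the first KA cohort, 0 to 1 in CNO brain and 1 to 2 with oleic acid on knockout astrocytes. The causes were not tested.

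All-gene counts moved too. In the first KA cohort 28 became 44 with a pseudocount of 0.1, 2 without the filter, 2 with the block and 91 with the length trend removed. In CNO brain 571 became 197 without the filter and 928 with the block. DESeq2 gave 138 instead of 13 in second-cohort KA brain, 275 instead of 26 with Apoe knockout and 235 instead of 9 with labelled A2aR knockdown, where the compared groups alone gave 11 and 1, and the block gave 5 for Apoe knockout. On wild-type astrocytes, medium called 6, against 1 to 30 under the alternatives, and the 2 media against each other 229, with 128 at a pseudocount of 0.1 and 151 with median-ratio scaling. Outside the CNO set same-numbered libraries did not deviate together in every pair, and the block changed no member call other than those of Rasd1 in the first cohort and Sik1 in the second. The labelled A2aR knockdown shares 1 number with KA brain, so no paired fit was possible there. Unknown depth limits the TPM tables, and Rasd1 and Zbtb16 are too low in astrocytes to test.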
